A study of Mus musculus with 3 samples.

Results

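TBX5 peaks lying beside the ends of several protein-coding genes at once were examined, as at promoters from which a pair of neighbouring genes is transcribed in opposite directions. A peak was taken when its summit lay within 1 kb of an end, meaning the first or last annotated base, of 2 or more different protein-coding genes of RefSeq (build GRCm38.p6, the assembly of mm10). Position alone chose these shared-end peaks. They numbered 733 of the 28381 peaks in the deposited list (2.58%, 95% interval 2.40 to 2.77) and 14.7% of the 4980 peaks at any gene end. The 4247 peaks at an end of 1 gene only, called 1-gene peaks, served for comparison.

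Lungs of E14.5 embryos of the mouse strain CD-1 were profiled for TBX5 by ChIP-seq, the sequencing of immunoprecipitated chromatin. No allele or treatment is named for any sample. There are 2 TBX5 ChIP libraries, with 1 whole lung behind each replicate, and 1 input library. Lung is named in all 3 titles, but heart stands as the source of the input and of ChIP library 2. The data are 1 peak list for the whole series. No value per library, spread between libraries or depth could be taken from it, and the labelled tissue could not be checked against marker expression. Intervals are therefore exact 95% binomial (Clopper-Pearson) intervals over peaks, genes or pairs. They cover counting error only, and peaks are not biological replicates.

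TBX5 regulates transcription in the heart, the forelimb and the embryonic lung mesenchyme, and T-box proteins such as TBX5 bind DNA through a core with the letters AGGTGT. Many mammalian genes stand head to head, with their starts close together and their transcripts running apart. Such bidirectional promoters are known to be rich in CpG dinucleotides, to lack TATA boxes often, to carry sites for ETS factors such as GABPA, and to serve many genes of mitochondria, DNA repair and basic metabolism.

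Promoter sequences at 9 shared-end peaks are printed because they show what stands under and beside the summits. The first 5 belong to the strongest peaks at a pair of gene starts for which a RefSeq promoter window covers the summit. The next 2 belong to the strongest peaks with the T-box core within 50 bases of the summit. The last 2 belong to textbook head-to-head pairs, the mitochondrial chaperonin genes and a pair of purine synthesis genes. Each sequence is a RefSeq window (GRCm38.p6) of 300 bases, written 5′ to 3′ on the strand of 1 gene of the pair, with the start that the promoter table gives that gene at base 251. This start can differ from the gene's first base used to choose the peaks. It does so at Shoc2, whose first base is at 53944232, and at Rab6a, at 100607575, both before base 251 of their windows. Capitals mark the T-box core (AGGTGT, or ACACCT on the other strand) and the ETS motif (CCGGAAG, or CTTCCGG on the other strand).
Shoc2/Bbip1: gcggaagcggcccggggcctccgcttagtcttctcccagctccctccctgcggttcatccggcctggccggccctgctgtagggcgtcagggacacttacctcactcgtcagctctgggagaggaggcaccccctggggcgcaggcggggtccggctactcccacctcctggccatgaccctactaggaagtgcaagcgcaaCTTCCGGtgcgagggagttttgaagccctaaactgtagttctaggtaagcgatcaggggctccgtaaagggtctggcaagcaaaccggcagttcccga
Mkks/Slx4ip: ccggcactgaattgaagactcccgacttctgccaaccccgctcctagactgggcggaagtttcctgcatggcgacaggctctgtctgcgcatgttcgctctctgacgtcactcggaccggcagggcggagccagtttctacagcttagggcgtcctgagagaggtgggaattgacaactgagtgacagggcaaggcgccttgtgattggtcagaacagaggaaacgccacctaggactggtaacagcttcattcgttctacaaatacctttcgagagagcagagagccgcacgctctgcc
Abhd8/Mrpl34: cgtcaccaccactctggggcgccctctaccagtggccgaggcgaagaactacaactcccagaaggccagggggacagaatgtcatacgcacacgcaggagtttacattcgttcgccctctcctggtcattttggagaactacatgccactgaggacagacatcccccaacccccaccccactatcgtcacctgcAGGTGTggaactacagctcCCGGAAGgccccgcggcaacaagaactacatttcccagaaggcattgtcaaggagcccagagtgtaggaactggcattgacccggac
Foxj3/Frg2f1: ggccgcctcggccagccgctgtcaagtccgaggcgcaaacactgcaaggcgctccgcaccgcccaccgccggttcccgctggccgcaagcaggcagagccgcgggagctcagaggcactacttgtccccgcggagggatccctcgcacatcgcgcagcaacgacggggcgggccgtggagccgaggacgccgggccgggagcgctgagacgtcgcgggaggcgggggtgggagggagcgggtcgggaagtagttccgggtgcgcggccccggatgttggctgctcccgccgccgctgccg
Harbi1/Atg13: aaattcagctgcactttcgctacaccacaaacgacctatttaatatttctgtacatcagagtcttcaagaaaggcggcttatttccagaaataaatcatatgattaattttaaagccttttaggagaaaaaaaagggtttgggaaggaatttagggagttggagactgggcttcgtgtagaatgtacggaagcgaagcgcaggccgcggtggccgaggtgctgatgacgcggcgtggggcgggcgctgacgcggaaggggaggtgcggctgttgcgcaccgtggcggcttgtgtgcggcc
Rab6a/Mrpl48: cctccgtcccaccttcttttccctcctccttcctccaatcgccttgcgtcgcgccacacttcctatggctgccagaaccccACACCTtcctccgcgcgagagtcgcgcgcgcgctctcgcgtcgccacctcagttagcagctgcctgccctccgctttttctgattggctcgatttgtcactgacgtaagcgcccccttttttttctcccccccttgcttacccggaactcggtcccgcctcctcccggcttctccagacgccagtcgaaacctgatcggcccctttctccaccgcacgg
Izumo4/Mob3a: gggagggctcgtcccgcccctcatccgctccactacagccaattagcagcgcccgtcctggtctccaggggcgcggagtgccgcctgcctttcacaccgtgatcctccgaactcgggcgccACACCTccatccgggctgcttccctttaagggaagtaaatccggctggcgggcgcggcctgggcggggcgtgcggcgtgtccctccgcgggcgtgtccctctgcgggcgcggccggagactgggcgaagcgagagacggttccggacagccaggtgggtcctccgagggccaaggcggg
Hspe1/Hspd1: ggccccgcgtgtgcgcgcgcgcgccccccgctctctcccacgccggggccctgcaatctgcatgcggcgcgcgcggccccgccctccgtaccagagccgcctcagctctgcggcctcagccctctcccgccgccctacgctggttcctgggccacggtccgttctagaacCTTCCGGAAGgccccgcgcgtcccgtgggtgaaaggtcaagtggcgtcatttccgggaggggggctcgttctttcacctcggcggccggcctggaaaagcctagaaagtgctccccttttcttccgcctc
Ppat/Paics: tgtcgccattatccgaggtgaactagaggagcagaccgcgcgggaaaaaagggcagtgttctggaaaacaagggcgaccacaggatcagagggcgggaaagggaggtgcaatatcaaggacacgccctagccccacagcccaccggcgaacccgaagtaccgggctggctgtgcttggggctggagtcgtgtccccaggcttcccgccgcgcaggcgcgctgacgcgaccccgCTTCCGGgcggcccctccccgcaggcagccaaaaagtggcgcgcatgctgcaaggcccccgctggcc

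The windows of the 5 strongest are those of Shoc2 (chr19:53944056-53944355, plus strand, summit at base 88), Mkks (chr2:136891357-136891656, minus strand, base 183), Mrpl34 (chr8:71464676-71464975, plus strand, base 15), Foxj3 (chr4:119539411-119539710, plus strand, base 120) and Harbi1 (chr2:91710602-91710901, plus strand, base 152). Those chosen for the T-box core are the windows of Rab6a (chr7:100607336-100607635, plus strand, summit at base 72) and Mob3a (chr10:80701771-80702070, minus strand, base 131). The textbook windows are those of Hspe1 (chr1:55087898-55088197, plus strand, summit at base 170) and Ppat (chr5:76951529-76951828, minus strand, base 184). Among the 5 strongest, the core stood in the Mrpl34 window alone, from base 195, with its centre 182.5 bases from the summit. In the 2 windows chosen for it, the centre of the core lay 12.5 bases from the summit at Rab6a and 6.5 at Mob3a. The ETS motif stood in 4 of the 9 windows, those of Shoc2, Mrpl34, Hspe1 and Ppat, and the TATA letters TATAAA stood in 0 of them. A match is a description of letters, not a bound site, and a missing match says only that the letters are not in that window.

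Most shared-end peaks lay at gene starts. Of the 733, ends of exactly 2 genes were in reach of 718 peaks, of 3 genes for 14 and of 24 genes for 1. The peaks touched 1353 different genes, and 141 genes had 2 or more such peaks, with at most 3. Strand could be read from the RefSeq promoter table for 1126 of these genes (83.2%). Among the 542 peaks with 2 genes of known strand, 428 lay at a start of each gene (79.0%, 75.3 to 82.3), 97 at a start and a last base (17.9%), and 17 at 2 last bases (3.14%). These are called start-start, start-last and last-last peaks. All but the 17 last-last peaks thus lay at a start of at least 1 gene. Of 1-gene peaks of known strand, 3061 of 3342 lay at a start (91.6%). That share asks for a start of 1 gene and is not like the 79.0%, which asks for a start of both. Over all pairs of ends at most 2 kb apart and of known strand, 1048 were start-start, 975 start-last and 1105 last-last.

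The nearest 2 ends were a median of 169 bp apart (quartiles 68 and 411 bp, largest 1646 bp), and the summit fell between them in 241 of 733 peaks (32.9%, 29.5 to 36.4). Most of the stretch within 1 kb of both ends lies outside the gap when the ends are close, so the size of this share is set in part by the rule. At start-start peaks the starts were a median of 120 bp apart, and 418 of 428 pairs were on opposite strands. In 267 of these the transcribed regions were apart, so that the 2 starts flanked a gap, with a median of 100 bp. The summit lay in that gap for 77 of the 267 (28.8%, 23.5 to 34.7) and otherwise on the transcribed side of 1 of the starts. By gap, the share was 24 of 134 (17.9%) at gaps up to 100 bp, 30 of 83 (36.1%) at 101 to 300 bp and 23 of 50 (46.0%) at 301 to 2000 bp, and no test was made of this order. At 1-gene peaks at a start, the summit lay upstream of the start in 1295 of 3061 (42.3%). That count takes summits up to 1 kb upstream, and the 28.8% only those inside the gap, so the shares are not alike.

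**Figure D1:**
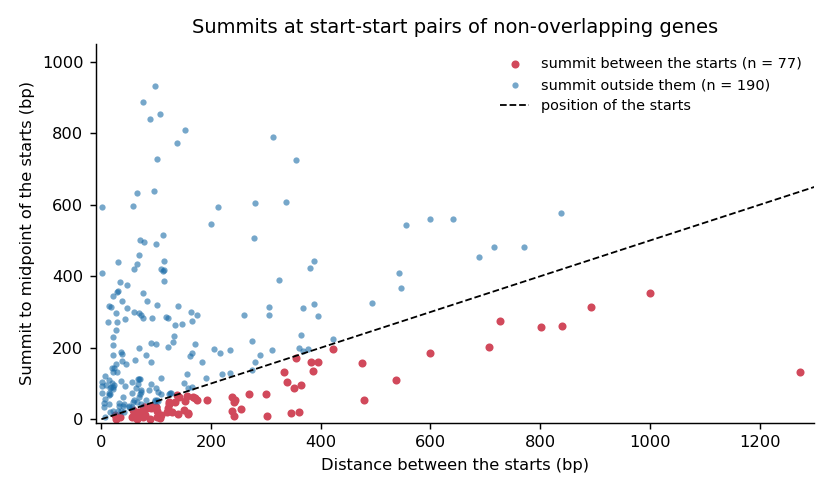
Distance of each summit from the midpoint of the 2 starts (vertical axis, bp) against the distance between the starts (horizontal axis, bp), 1 point per start-start peak of non-overlapping genes on opposite strands (n = 267). The median distance from the midpoint was 131 bp, and 116 of the 267 summits (43.4%) lay within 100 bp of it.

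Summits at pairs were close to a start. At start-start peaks the nearer start was a median of 83.5 bp from the summit and the farther a median of 267.5 bp. Over all shared-end peaks the nearest end was a median of 95 bp away, against 185 bp for 1-gene peaks. A second end in reach makes a small nearest distance more likely, so no test was made of this difference. In 151 of the 418 opposite-strand pairs the transcribed regions overlapped, as at Shoc2 and Bbip1.

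Closely spaced starts carried a TBX5 summit more often than lone starts. RefSeq holds 4809 pairs of ends of different protein-coding genes at most 2 kb apart. A shared-end summit lay within 1 kb of both ends in 966 of them (20.1%, 19.0 to 21.2). Of these, 276 pairs come from 24 annotated genes at the protocadherin gamma cluster, 21 of them with a protocadherin symbol, that share 1 peak, and without them the share was 690 of 4533 (15.2%). Among start-start pairs, 412 of 1048 had a summit near both starts (39.3%, 36.3 to 42.3), against 98 of 975 start-last pairs (10.1%, 8.24 to 12.1) and 20 of 1105 last-last pairs (1.81%, 1.11 to 2.78). Starts with no other gene end within 2 kb had a summit within 1 kb in 2486 of 13853 cases (17.9%, 17.3 to 18.6), and lone last bases in 234 of 13611 (1.72%, 1.51 to 1.95). A window of 1 kb around the midpoint of the pair is as long as that around a lone end, and by it 448 of 1048 start-start pairs had a summit (42.7%, 39.7 to 45.8), 161 of 975 start-last pairs (16.5%, 14.2 to 19.0) and 30 of 1105 last-last pairs (2.71%, 1.84 to 3.85). By either window the interval of start-start pairs lay above that of lone starts, and the interval of last-last pairs overlapped that of lone last bases.

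**Figure D2:**
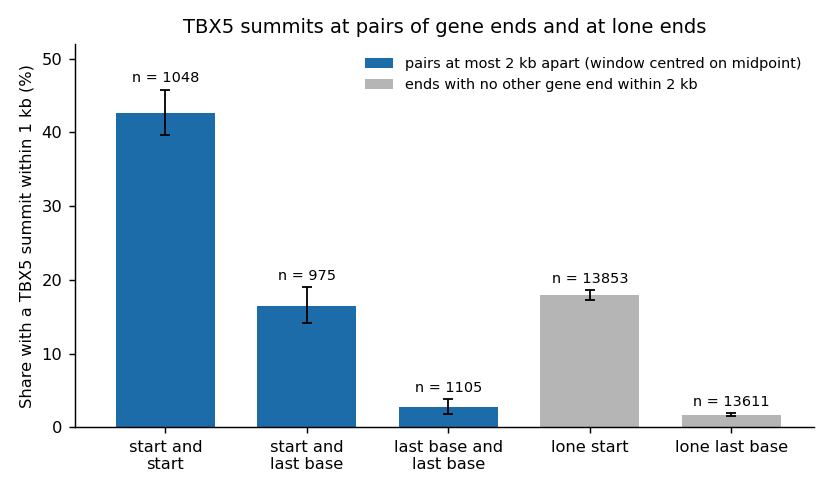
Share of pairs of ends at most 2 kb apart with a TBX5 summit within 1 kb of the midpoint of the pair, and of lone ends with a summit within 1 kb of the end (vertical axis, percent), by arrangement, with exact 95% binomial intervals. By this window the shares were 42.7% for start-start, 16.5% for start-last and 2.71% for last-last pairs, against 17.9% for lone starts and 1.72% for lone last bases.

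The share was also taken by the distance within a pair. A requirement of 1 kb to both ends is harder to meet for distant ends, so the midpoint window was used here. Within 1 kb of the midpoint, a summit lay at 185 of 409 start-start pairs up to 100 bp apart (45.2%, 40.3 to 50.2), 122 of 288 at 101 to 300 bp (42.4%, 36.6 to 48.3), 105 of 239 at 301 to 1000 bp (43.9%, 37.5 to 50.5) and 36 of 112 at 1001 to 2000 bp (32.1%, 23.6 to 41.6). The share was lowest at 1001 to 2000 bp. The intervals of all 4 classes overlapped, which is no test of their differences, and none was made.

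CpG content differed between paired and lone starts, and the comparison was therefore repeated within classes of CpG count, a step added after the data were seen. The promoter windows held a median of 23 CpG dinucleotides at paired starts and 11 at lone starts. With 1 start counted per start-start pair, 408 of 933 had a summit within 1 kb (43.7%) against 2374 of 12489 lone starts (19.0%). In windows of 0 to 9 CpG the shares were 16 of 96 (16.7%) and 187 of 5883 (3.18%), with an adjusted p of 2.08e-07. In windows of 10 to 19 CpG they were 98 of 241 (40.7%) and 566 of 2504 (22.6%), with an adjusted p of 1.36e-08. In windows of 20 to 29 CpG they were 154 of 354 (43.5%) and 827 of 2374 (34.8%), with an adjusted p of 0.00199. In windows of 30 or more they were 140 of 242 (57.9%) and 794 of 1728 (45.9%), with an adjusted p of 0.000765 (two-sided Fisher's exact test, Benjamini-Hochberg over the 4 classes). The paired share was higher in 4 of 4 classes. The classes do not match content fully. At 0 to 9 CpG the median count was 5 at paired and 3 at lone starts, and only the window of the counted start was classed. In pairs up to 1 kb apart, the 1 kb around a paired start also holds its partner's start. Whether the genes are transcribed in lung was not measured here. The part of these, or of CpG content, in the difference was not tested.

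**Figure D3:**
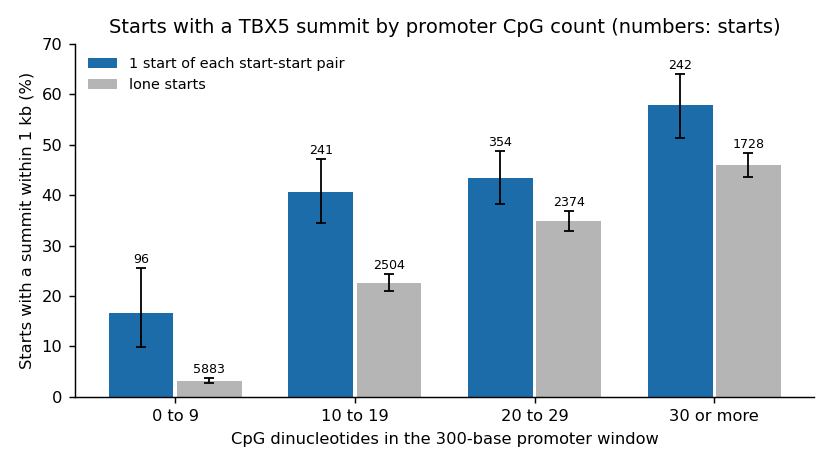
Share of gene starts with a TBX5 summit within 1 kb (vertical axis, percent) by the number of CpG dinucleotides in the 300-base promoter window (horizontal axis), for 1 start per start-start pair and for lone starts, with exact 95% binomial intervals. Both shares were lowest at 0 to 9 CpG (16.7% and 3.18%) and highest at 30 or more (57.9% and 45.9%).

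Shared-end and 1-gene peaks had the same median height. Fold enrichment and −log10 q are values of the authors' peak caller, and serve here only for description and ranking inside the list. Shared-end peaks had a median fold of 5.49 (quartiles 4.49 and 6.87, range 2.73 to 29.7), and 1-gene peaks a median of 5.49 (4.51 and 7.06, highest 45.9). Peaks at no gene end had a median of 6.60 (n = 23401). The share above the joint median was 364 of 733 (49.7%) against 2123 of 4247 (50.0%), a difference of -0.329 percentage points (95% interval -4.25 to 3.59, adjusted p = 0.873, two-sided Fisher's exact test, Benjamini-Hochberg over 5 comparisons). Width showed no difference past the threshold either, with 51.3% of shared-end and 49.6% of 1-gene peaks wider than their joint median of 290 bp (adjusted p = 0.530, two-sided Fisher's exact test).

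Strong peaks, the 5000 with the highest −log10 q, made up 17.6% of the list but 50 of the 733 shared-end peaks (6.82%, 5.10 to 8.89) and 358 of the 4247 1-gene peaks (8.43%, 7.61 to 9.31). The difference of -1.61 points (-3.62 to 0.399) did not pass the threshold (adjusted p = 0.410, Fisher's exact test). With all annotated RefSeq genes in place of protein-coding genes, 1554 peaks qualified and both calls changed. The strong share was then 7.92% against 11.4% (adjusted p = 0.000234) and the share above the joint median fold 45.1% against 51.2% (adjusted p = 0.000150), both by Fisher's exact test.

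Start-start peaks had a median fold of 5.45 (quartiles 4.46 and 6.63), start-last peaks 5.90 (4.46 and 7.21) and last-last peaks 6.30 (4.24 and 9.71). Among 1-gene peaks, those at a start had a median of 5.44 and those at a last base 6.13. Of start-start peaks 48.6% were above the joint median, against 55.3% of the 114 other peaks of known arrangement, a difference of -6.67 points (-16.9 to 3.62, adjusted p = 0.410, Fisher's exact test). Among peaks of 5-fold or more the shares were 44.9% and 67.1% and the difference passed the threshold (adjusted p = 0.00519, Fisher's exact test). These peaks were filtered on the same fold values that the test compares. That result therefore describes the filtered peaks and does not bear on the shared-end peaks as a whole.

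**Figure D4:**
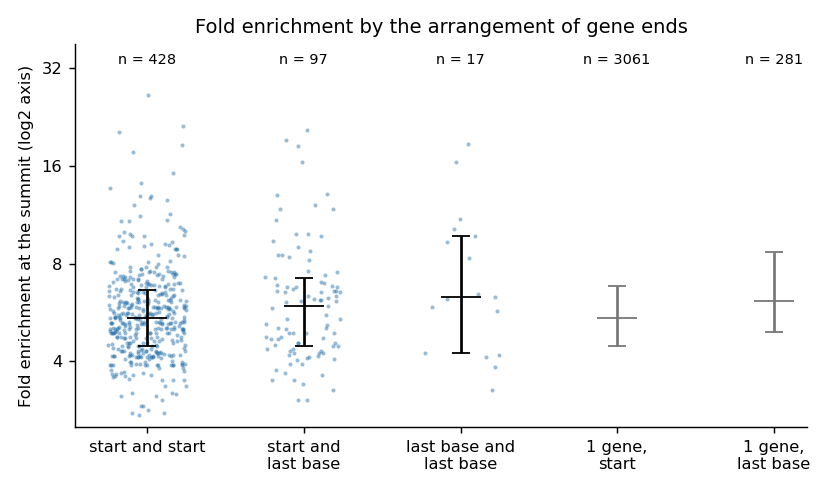
Fold enrichment at the summit (vertical axis, log2 axis) of peaks grouped by the arrangement of the gene ends they touch; points are shared-end peaks, and bars give the median and quartiles of all 5 groups. The medians of start-start peaks (5.45) and of 1-gene peaks at a start (5.44) lay side by side, and the quartile ranges of all groups overlapped.

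Start-start peaks stood alone more often than 1-gene peaks. Another summit lay within 10 kb of 50.1% of all peaks in the list. It did so for 269 of 733 shared-end peaks (36.7%, 33.2 to 40.3) and 1955 of 4247 1-gene peaks (46.0%, 44.5 to 47.5), a difference of -9.33 points (-13.1 to -5.54, adjusted p = 1.22e-05, Fisher's exact test). Peaks close together count as neighbours of each other, so they are not independent units. The p-values and intervals of this comparison can therefore overstate certainty. Between start-start peaks and 1-gene peaks at a start, a comparison added after the data were seen, the shares were 128 of 428 (29.9%) and 1350 of 3061 (44.1%), with an adjusted p of 9.91e-08 by the same test. The lower share was not seen at start-last or last-last peaks against all 1-gene peaks. A neighbour stood by 51 of 97 start-last peaks (52.6%, 42.2 to 62.8) and 9 of 17 last-last peaks (52.9%, 27.8 to 77.0). Among 1-gene peaks at a last base the share was 178 of 281 (63.3%). For shared-end peaks with a gene of unknown strand it was 77 of 180 (42.8%, 35.4 to 50.4). At 3 or more genes of known strand it was 4 of 11 (36.4%, 10.9 to 69.2). Shared-end peaks lay in gene-denser regions, with a median of 6 genes starting within 100 kb against 3. At up to 2 such genes the shares with a neighbour were 40.7% and 50.7%, at 3 to 5 genes 32.5% and 39.9%, and at 6 or more 38.4% and 47.3%, so the shared-end share was lower in 3 of 3 classes, which were not tested singly.

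The 10 strongest shared-end peaks included start-start, start-last and last-last peaks. The highest −log10 q (86.8) and fold (29.7) belonged to a peak at chr15:79833166-79833645, 921 bp from a base shared by the annotations of Cbx6, a Polycomb chromobox gene, and Npcd. Next came a peak 101 bp from the start of Ptk7, a receptor of planar cell polarity, and 474 bp from the last base of Klc4, a kinesin light chain gene (chr17:46629443-46630529, fold 20.7). The Shoc2 and Bbip1 peak (chr19:53943900-53945097) had a fold of 26.5. Shoc2 encodes a scaffold of RAS signalling, and Bbip1 a subunit of the BBSome, which carries cargo to cilia.

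The Mkks and Slx4ip peak (chr2:136890953-136891713, fold 21.3) lay 68 bp from the start of Mkks, a chaperonin-like gene needed to assemble the BBSome. The Abhd8 and Mrpl34 peak (chr8:71464533-71465026, fold 20.3) lay 17 bp from the start of Abhd8, and Mrpl34 encodes a mitochondrial ribosomal protein. These 5 were the only shared-end peaks of 20-fold or more. The others of the 10 were at Foxj3 and Frg2f1 (fold 18.6), Cdon and Gm1113 (16.5), Klf3 and Gm38457 (13.0), Gabarap and Ctdnep1 (19.2), and Gm52006 and Zfp36l1 (18.4). Foxj3 is a forkhead factor gene, Klf3 a zinc finger repressor gene, Gabarap an autophagy gene of the ATG8 family, and Zfp36l1 a regulator of mRNA decay.

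A shared-end peak was found at 6.26% of all 21627 protein-coding genes, and 32.6% of these genes had an end within 2 kb of another gene's end. Within each list, the peaks that lead are those with the highest −log10 q, and the value printed is their fold, so a peak not named can have a higher fold. Of 75 mitochondrial ribosomal protein genes, 48 had such a close end (64.0%) and 13 a shared-end peak (17.3%, 9.57 to 27.8), led by Mrpl34 and by Mrpl48 beside Rab6a (fold 11.4). Of 49 genes for subunits and assembly factors of respiratory complex I, 34 had a close end (69.4%) and 11 a shared-end peak (22.4%, 11.8 to 36.6), led by Ndufa4 beside Phf14 (fold 14.2) and Ndufb1 beside Cpsf2 (7.71). Among genes with a close end only, a shared-end peak was at 19.2% over all genes. On that base the share was 27.1% for mitochondrial ribosomal protein, 32.4% for complex I, 36.8% for aminoacyl-tRNA synthetase, 30.3% for DNA repair and replication and 23.8% for cytoplasmic ribosomal protein genes. It was 20.0% for RNA polymerase, 19.2% for histone, 17.6% for C2H2 zinc finger, 15.4% for Hox and 9.52% for proteasome genes. This base pools all arrangements of ends. Over all pairs, a summit lay near both ends in 39.3% of start-start, 10.1% of start-last and 1.81% of last-last pairs. The arrangement of close ends was not counted by list, so its part in these shares was not tested.

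Against the 6.26% of all genes, a shared-end peak was at 10 of 84 cytoplasmic ribosomal protein genes (11.9%), with Rpl37 beside Card6 the strongest (fold 14.6). It was at 7 of 35 aminoacyl-tRNA synthetase genes (20.0%), led by Vars (9.02) and Fars2 (6.42), and at 4 of 28 RNA polymerase subunit genes (14.3%), led by Polr2h (6.70) and Polr1a (7.45). Of 44 proteasome subunit genes 2 had one, Psma7 (4.07) and Psmb3 (3.17). Of 50 DNA repair and replication genes 10 had one (20.0%, 10.0 to 33.7), led by the helicase gene Wrn beside Purg (12.6) and by Pcna, the sliding clamp of replication, beside Cds2 (7.07).

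The 10 replication-dependent histone genes with a shared-end peak (of 67) had 6 peaks between them, led by H2bc22 and H2ac22 (fold 7.54) and by H2ac20, H2bc21 and H2ac21 (6.60). In the Hox clusters, Hoxa5 and Hoxa6 were the 2 of 39 genes with shared-end peaks, which had folds of 6.55 and 4.74. Of 367 C2H2 zinc finger genes, taken as symbols of Zfp and a number alone (so without Zfp36l1), 13 had one (3.54%), led by Zfp142 beside Bcs1l (15.2) and Zfp219 beside Tmem253 (11.8). For the protocadherin cluster genes, 21 of 57 were counted at the 1 peak of 4.89-fold that touched 24 annotated genes.

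None of the listed mesenchymal transcription factor genes had a shared-end peak. Of 32 transcription factor genes of the lung mesenchyme, 1 had a close end and 0 a shared-end peak (exact interval up to 10.9%), while 24 had a 1-gene peak (75.0%), as did 3598 of all 21627 protein-coding genes (16.6%). Of 71 genes of the hedgehog, Wnt, FGF, BMP and retinoic acid pathways, 9 had a close end, 3 a shared-end peak (4.23%, against 6.26% of all genes) and 37 a 1-gene peak (52.1%, against 16.6%). Of the 3, Cdon, a hedgehog co-receptor gene, had a peak between its last base and that of Gm1113 (chr9:35508167-35508827). The others were Rxrb, a retinoid receptor gene, beside Slc39a7 (fold 5.45), and Tgfb1 beside B9d2 (5.83), the last named after its value was seen. Tgfb1 is a growth factor gene of the TGF-beta family, counted although the name of the list gives BMP and not TGF-beta. Of 44 collagen genes 14 had a close end and 0 a shared-end peak (up to 8.04%). Among genes with a close end only, a shared-end peak was at 33.3% of the 9 pathway genes and 0 of the 14 collagen genes, against 19.2% over all genes. Only 1 of the 32 mesenchymal transcription factor genes had an end where such a peak could lie. The lists differ in how many members have a close end, and may differ in the arrangement of those ends. No test was made between lists.

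**Figure D5:**
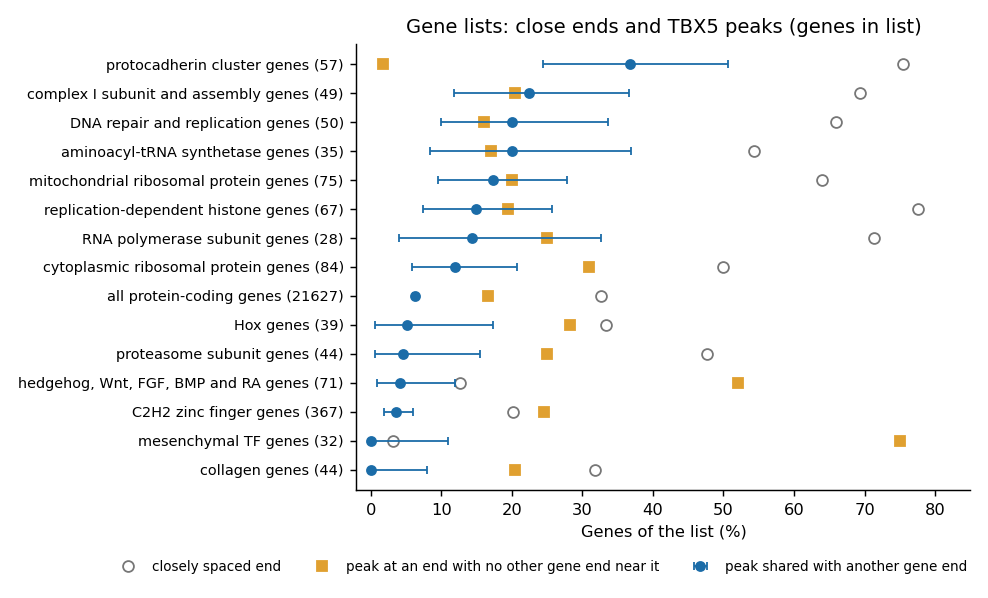
Share of the genes of each list (horizontal axis, percent) with an end within 2 kb of another gene's end, with a shared-end peak (with its exact 95% binomial interval), and with a 1-gene peak; the number of genes stands beside each list. Complex I genes had close ends in 69.4% and shared-end peaks in 22.4%, and the mesenchymal transcription factor genes 1-gene peaks in 75.0%, against 32.6%, 6.26% and 16.6% of all protein-coding genes for close ends, shared-end peaks and 1-gene peaks.

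Of the textbook head-to-head pairs described here, 3 had a shared-end peak. Hspd1 and Hspe1, whose starts are 95 bp apart and whose products form the mitochondrial chaperonin, had a peak of 7.53-fold. Brca1 and Nbr1 (152 bp) had one of 5.27-fold, and Ppat and Paics (276 bp) one of 5.02-fold. No summit lay within 1 kb at 5 others, the basement membrane collagen pairs Col4a1 and Col4a2 (84 bp) and Col4a3 and Col4a4 (113 bp), Surf1 and Surf2 (238 bp), Atm and Npat (61 bp), and Tap1 and Psmb9 (226 bp).

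The promoters at shared ends were searched for the letters of known motifs. Both strands were read in the 300-base windows of 930 genes with a shared-end peak, 2557 genes with a 1-gene peak and all 21044 windows of protein-coding genes. CCGGAAG stood in 27.2% (24.4 to 30.2), 17.8% (16.3 to 19.3) and 11.7% of them, in that order. AGGTGT stood in 10.3% (8.44 to 12.5), 11.0% and 12.8%. The YY1 letters AAGATGGC stood in 7.74%, 5.20% and 3.07%, the GC box GGGCGG in 68.7%, 74.7% and 46.7%, and TATAAA in 5.16%, 5.83% and 12.7%. Median CpG counts were 25, 25 and 13. Windows of a pair can overlap, so they are not independent, and no test was made.

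The table's windows covered the 101 bases around 307 shared-end and 1190 1-gene summits. AGGTGT stood in 20 of the 307 (6.51%, 4.02 to 9.88) and in 6.22% of the 1190. It stood in 4.56% of a stretch of the same length, 150 to 50 bases before the start, in all 21044 windows. CCGGAAG stood in 15.6% (11.8 to 20.2), 10.9% and 3.35%. The stretch in all windows stops 50 bases before the start, so it is unlike the summit stretches in position. Its median GC content was 57.4%, against 66.3% at shared-end and 69.3% at 1-gene summits. In the 200 bases next to the start, CCGGAAG stood in 22.7% of windows of shared-end genes, 15.8% of 1-gene windows and 10.1% of all windows. Among strong peaks AGGTGT was in 1 of 19 shared-end and 10 of 100 1-gene summits. Summits outside these windows were not searched.

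The 37 peaks whose second gene end lay 901 to 1000 bp away had a median fold of 5.63, and the 44 peaks just outside, at 1001 to 1100 bp, one of 5.37.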

How the data were processed

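TBX5 ChIP-seq of E14.5 CD-1 mouse lung (2 ChIP libraries, 1 input) was analysed from 1 deposited peak list on mm10. Bowtie2, SAMtools and MACS2 are named per the submitters' processing notes. Their versions and settings, whether libraries were pooled, and how the input was used: not given in the sources used here. The deposited list gives each peak's positions and summit (other), a fold enrichment (ratio), a −log10 q, and a score that is 10 times −log10 q; fold and −log10 q were used as the authors' caller gave them. Depth is unknown.

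Summits were joined to ends of protein-coding genes in the RefSeq gene table (GRCm38.p6). Strand was taken from the RefSeq promoter table, which held it for 79.9% of the genes; peaks at the others were kept without an arrangement. Shares were compared by two-sided Fisher's exact tests with Benjamini-Hochberg adjustment (threshold 0.05), with Python 3.11.15, scipy 1.17.1 and pandas 2.3.3. Scripts were checked on simulated data. Named genes are those at the 10 highest −log10 q and 5 highest fold peaks, peaks of 4 or more genes, the 2 strongest peaks of each list, the closest and farthest ends among strong peaks, and textbook pairs; some that the rule names are not reported here. Members and lists were chosen with earlier results of these data known, and the histone list was matched to the table's symbols after the table was seen. Alternatives varied the window, gene set, summit, peak strength, ranking and neighbour distance. The comparisons at starts only, the midpoint window, shared bases counted once, pairs without protocadherins and the CpG classes were added after the data were seen.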

Additional observations from a re-analysis of the deposited data

How the results depend on the processing

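The lower share of shared-end peaks with another summit within 10 kb kept its direction and passed the threshold under every alternative run, with adjusted p from 9.91e-08 to 0.0415 (Fisher's exact test), the last at 50 kb (72.6% against 77.1%). No alternative took start-last or last-last peaks alone. The share above the joint median fold turned direction without passing the threshold in a 500 bp window (50.7% against 49.6%, adjusted p = 0.669) and for start-start peaks against 1-gene peaks at a start (50.2% against 49.8%, adjusted p = 0.877), as did the share above the median width in the latter (49.1% against 50.0%, adjusted p = 0.877), all by Fisher's exact test. With all annotated genes, 1554 peaks qualified, and the fold share (45.1%) and strong share (7.92%) passed the threshold. With peaks of 5-fold or more, 462 qualified and the start-start fold share (44.9%) passed it, though these peaks were filtered on the fold that was then compared. The share of close pairs with a peak, 20.1%, was 21.8% in a 500 bp window, 14.7% with all annotated genes, 9.19% with peaks of 5-fold or more, 23.9% by the midpoint and 15.2% without the protocadherin pairs. The share of shared-end promoters with AGGTGT, 10.3%, was 6.67% in 200 bases. Except where an alternative's own construction changes the peaks, genes or bases counted, the cause was not tested. No paired analysis was possible because the 1 peak list holds no value per sample, and for the same reason no replicate could be left out.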

Other observations

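Some shared-end peaks outside the lists were picked after their values were seen. Autophagy genes stood at 3 strong peaks, Atg13 beside Harbi1 (fold 17.6), Atg3 beside Slc35a5 (13.7) and Gabarap. Others of that kind had peaks that were not strong, such as Atg2b beside Gskip (5.30) and Map1lc3b beside Zcchc14 (6.30). Strong peaks were 6.82% of all shared-end peaks, and autophagy and cilium genes were not counted as lists. Cilium genes included Bbip1, Mkks and Wdpcp, the last beside Mdh1 (12.1), and with lower folds Bbs1 beside Dpp3 (6.60) and Bbs12 beside Cetn4 (6.13). Hnrnpa2b1 and Cbx3 had a peak of 9.75-fold. The surfactant gene Sftpc had a weak shared-end peak with Bmp1 (4.19-fold). Ndufb1 and Cpsf2 had a second peak, the lowest of the 733 by fold (2.73). These are values only, and no test was made.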
